A study of Mus musculus with 5 samples.

Results

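The isolated initiation zones of the mouse autosomes are zones of 1 kb to under 10 kb that lie at least 100 kb, measured edge to edge, from the next zone on both sides. They were chosen by their width and by these distances, which gave 1729 of the 35512 zones in the list, or 4.92% of the 35138 zones on the 19 autosomes. The zones come from the CGR8 line of mouse embryonic stem cells, cultured in serum and leukaemia inhibitory factor with no feeder layer. Short nascent DNA strands of 0.5 to 2 kb from 3 separate cultures were freed of other DNA with lambda exonuclease and sequenced, and the zones were called on the 3 combined. The 2 controls, exonuclease-treated sonicated genomic DNA and a nascent fraction given RNase A at 100 ng/ml before the exonuclease, have no values in the list. All groups come from the same untreated line, and no genotype or compound was compared.

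Replication of a mammalian chromosome starts at many origins, and the DNA copied from an origin forms a replicon that ends where its forks meet those of the neighbouring origins. Origins are not evenly spread: gene-rich, early replicating chromatin holds many close together, while gene-poor, late replicating chromatin holds few, so that the forks there have farther to travel. A zone with no neighbour nearby is a place where a single detected start stands for a long stretch of DNA. An initiation zone here is an interval of enriched nascent strands. It says where starts were detected in a population of cells, and not how often an origin fires in a single cell.

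The list gives the position of each zone in build mm9 and no read count, strand or value per culture, so the depth behind a zone is unknown and no spread between cultures could be given. Spreads below are over autosomes or over zones, which are not biological replicates, and intervals on shares are 95% Wilson intervals that cover counting error only. Widths and distances of the isolated zones are a description, since the choice used them, and no difference below was tested. Sequences and genes of the zones are not shown, because the reference tables used are of another build.

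Isolation was the demanding part of the rule. Of the 35100 autosomal zones that are not the first or last of their chromosome, 26092 had a neighbour closer than 100 kb on both sides and 6751 on 1 side. The other 2257 zones (6.43%, interval 6.18% to 6.69%) stood alone on both sides. The lower limit on width then removed 528 of them, which were 23.4% of the isolated zones of any width (interval 21.7% to 25.2%). Of these 528, 332 were 800 bp wide, 173 were 600 bp, 22 were 400 bp and 1 was 200 bp. The upper limit removed 0, because the widest isolated zone measured 9200 bp. Among the 32843 zones with a closer neighbour, 6.60% were under 1 kb and 2602 (7.92%) reached 10 kb.

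Isolated zones were mostly narrow. They were 1600 bp wide at the median, with quartiles of 1200 and 2200 bp and a 90th percentile of 3000 bp. The 28074 autosomal zones of the same width range with a neighbour within 100 kb were 2600 bp wide at the median (quartiles 1800 and 4400 bp). The smallest width allowed, 1000 bp, was also the commonest among isolated zones, with 335 of them (19.4%, interval 17.6% to 21.3%). Only 5.93% of the zones that were not isolated had this width. At the other end, 210 isolated zones (12.1%) were 3 kb or wider, compared with 45.2% of the others, and 33 (1.91%, interval 1.36% to 2.67%) were 5 kb or wider, compared with 19.9%. Isolated zones covered 3.20 Mb in all, or 2.30% of the 139.1 Mb covered by autosomal zones.

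**Figure D1:**
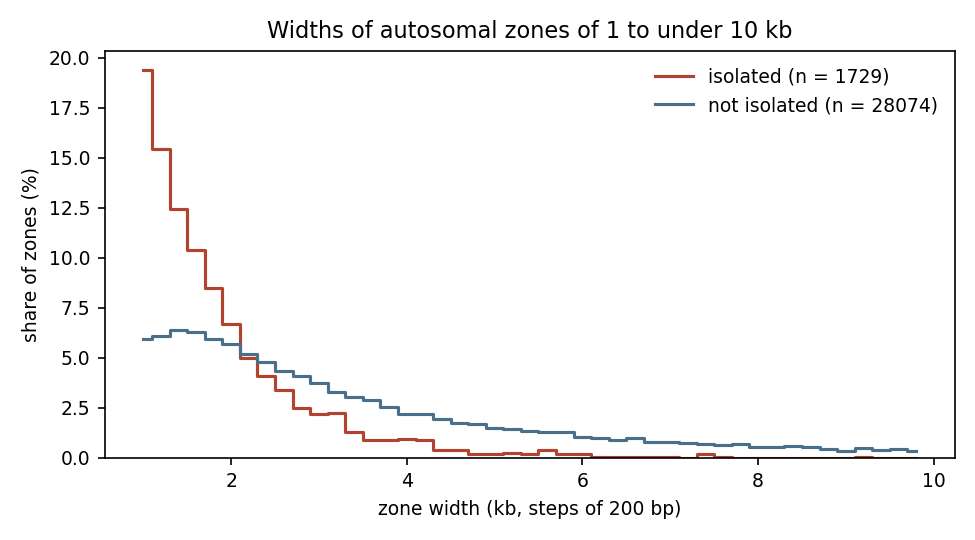
Share of zones (vertical axis, in percent) at each width in steps of 200 bp (horizontal axis, in kb) for the 1729 isolated autosomal zones and for the 28074 autosomal zones of the same width range that are not isolated. The isolated zones peak at 1000 bp with 19.4%, and their share lies above that of the other zones at widths up to 2 kb.

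The narrow widths were seen on every autosome. Median widths of isolated zones per autosome ranged from 1400 to 1800 bp (1547 ± 112 bp, SD, n = 19 autosomes), and those of the other zones in the width range from 2200 to 3200 bp (2632 ± 300.1 bp). The 2 ranges did not overlap, and the isolated zones had the lower median on 19 of 19 autosomes. The medians were closest on chromosome 13, at 1600 and 2200 bp. They were farthest apart on chromosome 11, at 1600 and 3200 bp, and chromosome 5, at 1400 and 3000 bp. Between these autosomes the median of the isolated zones moved by only 200 bp, the step in which widths are given, while that of the other zones moved by 1000 bp.

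The change of width with distance was gradual and did not begin at 100 kb. In the same width range the median was 3600 bp for zones whose nearest neighbour lay within 5 kb, 2800 bp at 5 to 10 kb, 2600 bp at 10 to 25 kb, 2200 bp at 25 to 50 kb and 2000 bp at 50 to 100 kb. Among the isolated zones it went on from 1600 bp at 100 to 150 kb to 1400 bp at 200 to 300 kb and 1200 bp at 500 kb or more (65 zones). Zones under 1 kb, counted over all widths, made up 3.43% within 5 kb, 18.3% at 100 to 150 kb and 31.6% at 500 kb or more. Zones of 10 kb or more made up 16.1% within 5 kb and 0.55% at 50 to 100 kb, and were 0 of 1073 zones at 100 to 150 kb. Across the isolated zones, Spearman's rho of width was -0.19 with the nearer distance and -0.23 with the farther distance (n = 1729 zones of 1 list, many of which share a stretch).

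**Figure D2:**
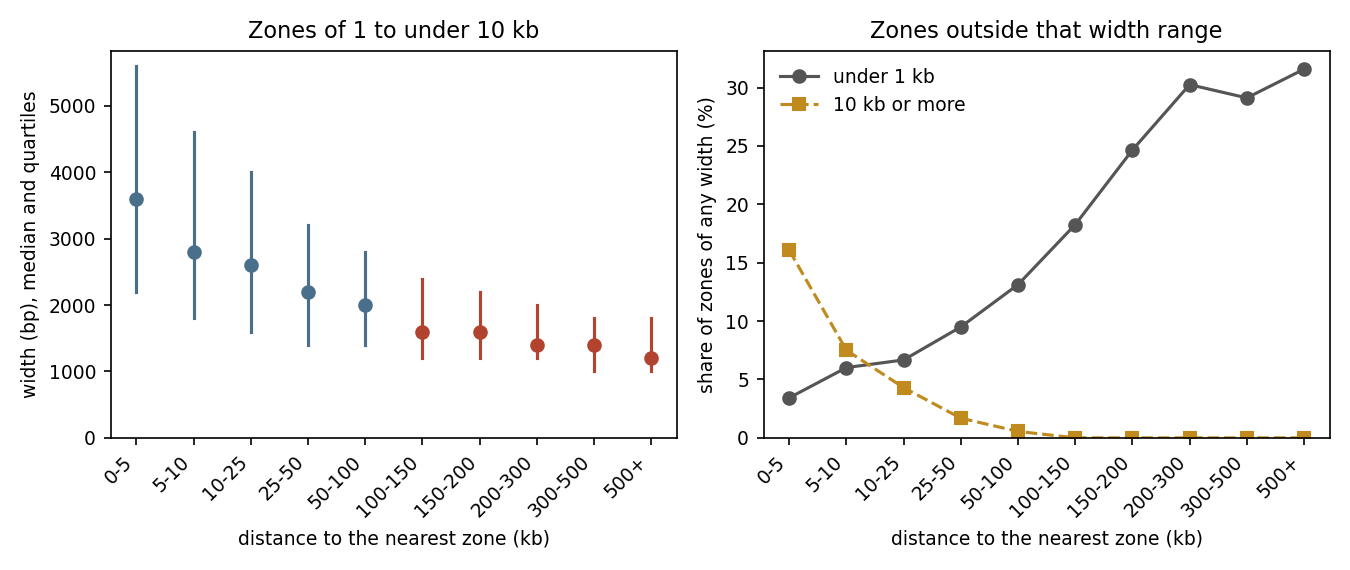
Left, median width with quartiles (vertical axis, in bp) of autosomal zones of 1 kb to under 10 kb by distance to the nearest zone (horizontal axis, in kb), with isolated zones in red. Right, share of zones of any width that were under 1 kb or 10 kb or more. Medians run from 3600 bp within 5 kb to 1200 bp at 500 kb or more, and the share under 1 kb from 3.43% to 31.6%.

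Both sides of a zone went with its width. Zones with no side at 100 kb or more had a median width of 3000 bp, zones with 1 such side 2000 bp, and isolated zones 1600 bp. The share of zones of 5 kb or wider in the width range was 23.4%, 6.69% and 1.91% in these classes. With the nearer neighbour within 10 kb, zones with an open stretch of 100 kb or more on the other side had a median of 2200 bp (1045 zones), and zones without one had 3400 bp (12301 zones). At 25 to 50 kb the medians were 2000 and 2200 bp, and at 50 to 100 kb 1800 and 2000 bp, 1 step of 200 bp apart. Under 10 kb the nearer distance was held only in part. In that range the median fell from 3600 bp within 5 kb to 2800 bp at 5 to 10 kb. How far this enters the gap between the 2 classes was not tested. Among isolated zones with the nearer neighbour at 100 to 150 kb, the median was 1800 bp where the farther one lay at 100 to 200 kb (435 zones), 1600 bp at 200 to 500 kb (333 zones) and 1400 bp at 500 kb or more (109 zones).

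The distances themselves were long-tailed. The nearer neighbour of an isolated zone lay at a median of 148.8 kb, with quartiles at 119 and 225.2 kb and a highest value of 1297 kb. The farther neighbour lay at a median of 305.4 kb, with quartiles at 186.6 and 520.0 kb and a highest value of 3504 kb. The longer side was 1.65 times the shorter one at the median, under 1.5 times in 714 zones (41.3%) and 3 times or more in 297 zones (17.2%). The longer stretch lay on the side of lower coordinates in 872 zones and on the side of higher coordinates in 856, with 1 tie. The left and right distances of isolated zones correlated at Spearman's rho 0.23 across zones, and those of the other zones in the width range at 0.26.

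The threshold cut through a continuous range. Within 10 kb above it there were 236 isolated zones, and within 10 kb below it 321 zones that met every other condition. The smallest distance, exactly 100 kb, was shared by 4 isolated zones. The zones of chromosome 7 at 111261801 to 111264800 (3000 bp) and 111364801 to 111368000 (3200 bp) are each other's nearest neighbour, and the zone on chromosome 9 from 87868601 to 87871400 (2800 bp) is another. Just outside, at 99.8 kb, 7 zones were tied. They include the zones on chromosome 13 from 103452401 to 103454000 (1600 bp), chromosome 14 from 77896201 to 77897400 (1200 bp) and chromosome 5 from 17377401 to 17378400 (1000 bp).

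The most isolated zones were narrow. The zone farthest from any other lay on chromosome 17 from 38681201 to 38682400 and was 1200 bp wide. It had 1304 kb without a zone before it and 1297 kb after it, so that it lay almost midway between its neighbours. The zone on chromosome 1 from 49797801 to 49798800 (1000 bp) followed a stretch of 2475 kb and preceded one of 1184 kb, and the zones on both sides of it, 1200 and 2800 bp wide, were isolated too. The zone on chromosome 5 from 79583001 to 79584200 (1200 bp) lay between stretches of 1014 and 1864 kb. These 3 zones were the only members of the set with no other zone within 1 Mb of their midpoint.

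Next came a zone on chromosome 15 from 20265201 to 20266200 (1000 bp), with 976.4 kb before and 1320 kb after it. The fifth, also of 1000 bp, lay on chromosome 1 from 112111401 to 112112400, with 1573 kb before and 952 kb after it, and the zones that bounded these stretches were 600 bp wide on both sides. Over the 20 zones with the greatest nearer distance, widths ran from 1000 to 2400 bp with a median of 1200 bp. Width and isolation were not exclusive, however: among the 65 zones with 500 kb or more on both sides the widest measured 6400 bp.

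The widest isolated zones sat in more populated regions. The widest, of 9200 bp, lay on chromosome 12 from 9049201 to 9058400, with 119 kb before and 126.6 kb after it, and 15 other zones lay within 500 kb of its midpoint. The second, of 7600 bp, lay on chromosome 2 from 146658001 to 146665600, with 12 others within 500 kb. Chromosome 3 carried 2 zones of 7400 bp, from 38783201 to 38790600 with 7 others and from 84813001 to 84820400 with 14 others. The fifth, also of 7400 bp, lay on chromosome 4 (83522401 to 83529800) with 9 others. All 5 were at least 2800 bp wider than the zones on either side of them.

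The same held by width group. The 335 isolated zones of 1000 bp had a median of 4 other zones within 500 kb and a nearer distance of 167.2 kb. The 443 zones of 1600 to 2000 bp had 6 others and 147.8 kb, the 177 zones of 3000 to 4800 bp had 8 others and 131 kb, and the 33 zones of 5000 bp or wider had 9 others and 119.8 kb. Each group up to 4800 bp occurred on all 19 autosomes. The 33 widest lay on 15 autosomes, with 5 on chromosome 1, and chromosomes 10, 13, 15 and 16 had none.

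Isolated zones accounted for much more of the chromosomes than their number. If each base between the first and last zone of an autosome is given to its nearest zone, the isolated zones received 533.8 Mb, or 22.1% of 2410 Mb. They were 4.92% of the autosomal zones, so their share of the sequence was 4.50 times their share of the zones, a ratio that the required distance raises by construction. A single isolated zone was nearest to a median of 237.1 kb (quartiles 163.2 and 374.9 kb), and a zone of the same width range that was not isolated to 32.2 kb (quartiles 16.5 and 60.9 kb). The largest such stretch held by an isolated zone was 1981 kb. With isolated zones under 1 kb added, the share of the span was 30.5%.

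Many of the longest empty stretches ended at an isolated zone. Of the 597 autosomal stretches over 500 kb without a zone, 397 (66.5%, interval 62.6% to 70.2%) had an isolated zone at 1 end or both, and 125 (20.9%) at both. For all 5638 stretches of 100 kb or more the shares were 49.8% and 11.5%. Seen from the zones, 457 of the 1729 (26.4%) bordered a stretch over 500 kb, and 65 (3.76%) lay between 2 of them. Both shares are raised by the rule, which requires 100 kb or more on the 2 sides of each isolated zone. The shares over all autosomal zones were not computed, so these are not read as a trait of isolated zones.

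The zones next to isolated zones were described by kind. Of the 3458 neighbours of isolated zones, counted once for each side, 1302 (37.7%) were themselves isolated zones of the set and 425 (12.3%) were isolated but under 1 kb wide. A further 1455 (42.1%) were of the same width range but had a closer neighbour on their far side. Zones of 10 kb or more were the neighbour in 8 cases (0.23%). The nearest zone was itself a member of the set for 621 zones (35.9%, interval 33.7% to 38.2%). A neighbour of an isolated zone has 1 side of 100 kb or more by the rule, and 30.7% of all 11265 such sides on the autosomes belonged to isolated zones of the set, so much of the 37.7% is given by the rule. For zones outside the set, the zone across such a side was an isolated one in 2151 of 7807 cases (27.6%).

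Beyond the neighbouring zone the next one lay at a median of 100.0 kb, with quartiles at 37.2 and 231.6 kb, and in 263 of 3453 cases (7.62%) it lay within 10 kb. The rule did not set this distance directly, but each such neighbour has 1 side of 100 kb or more by the rule. Of the 5814 zones of the width range with 1 such side only, 1045 had the neighbour on the other side within 10 kb. The 2 counts are not alike, since 1727 of the 3453 cases had the next zone at 100 kb or more. Such cases are left out of the 5814. The share over all zones facing such a stretch was not computed, so the 7.62% is not read as a trait of isolated zones. The neighbours of isolated zones were 1400 bp wide at the median (quartiles 1000 and 2200 bp). Compared with the mean of its 2 neighbours, an isolated zone was wider in 866 cases, narrower in 773 and equal in 90. The lower limit of 1000 bp applies to the isolated zones and not to their neighbours, which favours the first count.

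Runs of consecutive isolated zones, with no other zone between them, held 1049 of the 1729 zones (60.7%, interval 58.3% to 62.9%). This share too is raised by the rule, through the long side that every neighbour of an isolated zone has. The other 680 had no isolated zone of the set next to them. There were 239 runs of 2 zones, 98 of 3, 39 of 4 and 22 of 5 or more. Within runs the zones were separated by a median of 231.4 kb, with quartiles at 141.8 and 419 kb. The widths of consecutive isolated zones correlated at Spearman's rho 0.08 over 651 pairs, some of which share a zone. Median width was 1600 bp for zones with no isolated neighbour, 1500 bp with 1 and 1400 bp with 2.

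**Figure D3:**
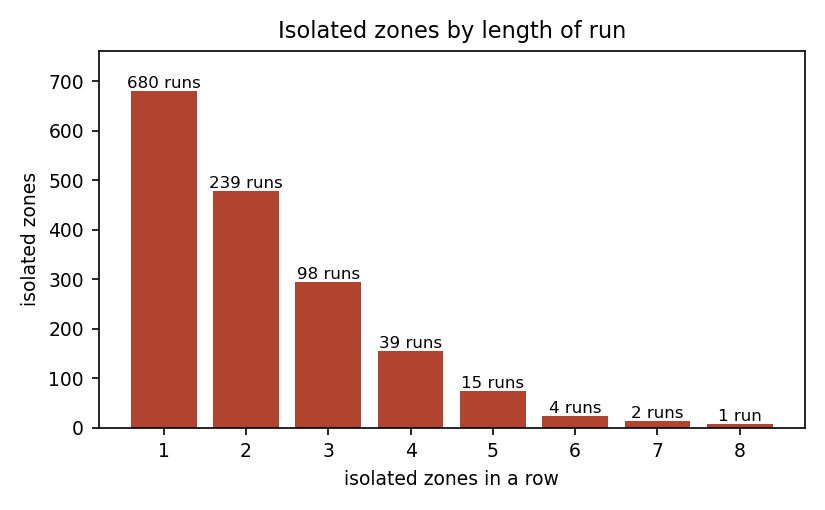
Number of isolated zones (vertical axis) by the number of isolated zones that follow one another with no other zone between (horizontal axis). The number of runs stands above each bar, from 680 single zones to 1 run of 8.

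The longest run had 8 isolated zones. It lay on chromosome 6 from 24904801 to 27359000, a length of 2.45 Mb, with gaps of 149.8 to 730.8 kb between its zones and widths from 1000 to 3000 bp. The gap before the run measured 289.2 kb and the gap after it 636 kb. The run of 7 zones on chromosome 10 from 13959401 to 17210800 was longer, at 3.25 Mb. The other run of 7, on chromosome 7 from 57927601 to 59118800, took up 1.19 Mb. In the run on chromosome 7 the gaps, 126 to 281 kb, were the most even of these 3 runs.

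The surroundings were then counted in 1 Mb windows. Of the isolated zones, 1710 lay in windows and 19 outside them, near the ends of the zone span. They fell in 1133 of the 2385 autosomal windows (47.5%). The median number of zones of any kind was 7 in these windows and 11 in all windows. In windows with 1 or 2 zones, isolated zones were 220 of the 422 zones (52.1%). Their share was 35.5% in windows with 3 to 5 zones, 13.8% with 6 to 10, 4.35% with 11 to 20 and 0.34% with 21 or more. Much of this fall is given by the rule, since windows with many zones leave little room for 100 kb without a zone on both sides. By number, however, 28.4% of these 1710 isolated zones lay in windows with 6 to 10 zones and 24.9% in windows with 11 to 20. Isolation within 100 kb was therefore not limited to the emptiest megabases. Windows with 6 to 10 zones were 442 of the 2385 and held 3531 zones of any kind. Those with 11 to 20 zones were 646 of the 2385 and held 9769. All autosomes together held 35138 zones, some of them outside windows. The 2 shares are not read as a trait of isolated zones.

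In 148 windows the isolated zones were the only zones. The most in a window was 5, found in 3 windows, each with no other zone. The window of chromosome 7 that starts at 58000001 lies inside the run described above. The others start at 54000001 on chromosome 12 and at 55000001 on chromosome 18. At the opposite extreme was an isolated zone on chromosome 7 from 28650801 to 28652600, singled out after its values were seen. It was 1800 bp wide and lay 136.4 kb from the zone before it and 215.6 kb from the zone after it, yet it had 41 other zones within 500 kb and 93 within 1 Mb.

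At growing distance the surroundings of isolated zones approached those of the others. The rule left the range beyond its own 100 kb open. At 0.25 to 0.5 Mb from their midpoints there were 9.34 ± 1.78 zones per Mb around isolated zones and 23.9 ± 4.70 around zones of the same width range that were not isolated (mean ± SD over 19 autosomes). At 1 to 2 Mb the densities were 11.6 ± 2.44 and 19.8 ± 4.79, and at 2 to 5 Mb 12.6 ± 3.05 and 17.7 ± 4.41. The density around isolated zones was the lower on 19 of 19 autosomes in each of these ranges. At 5 to 10 Mb it was 13.6 ± 3.08 against 15.9 ± 4.12 and lower on 14 of 19, and at 10 to 20 Mb 13.9 ± 2.96 against 15.4 ± 4.15 and lower on 12 of 19. The density around isolated zones thus stayed below that around the others for several megabases, far past the distance that defined them. The others, however, have a neighbour within 100 kb by definition. Whole autosomes held 14.7 ± 3.10 zones per Mb (mean ± SD, n = 19), and the density around the others lay above this mean in every range. Around isolated zones it lay below the mean, by just under 1 of these SDs at 1 to 2 Mb and by less at greater distances.

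**Figure D4:**
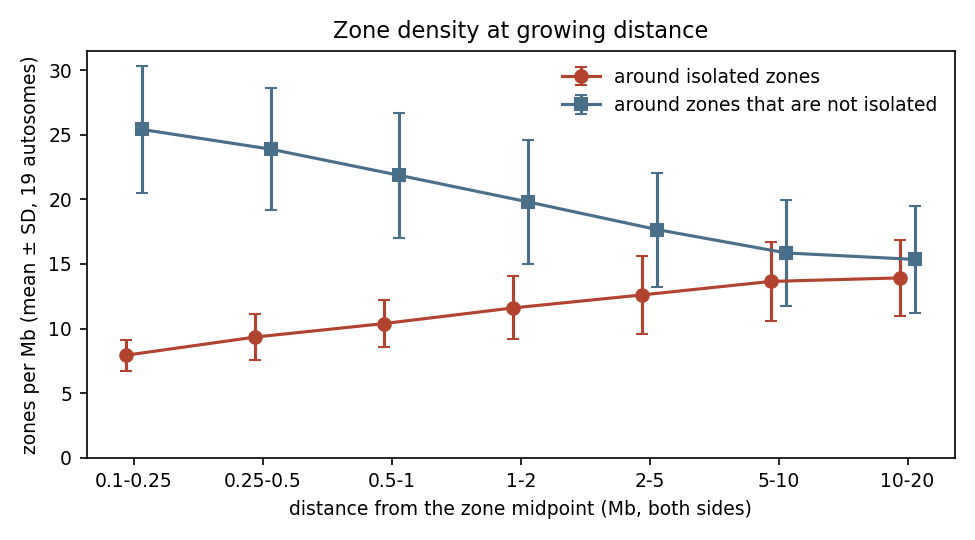
Zones per Mb (vertical axis, mean ± SD over 19 autosomes) in rings at growing distance from the midpoint of a zone (horizontal axis, in Mb, both sides), for isolated zones and for zones of 1 kb to under 10 kb that are not isolated. At 0.25 to 0.5 Mb the means are 9.34 and 23.9 zones per Mb, and at 10 to 20 Mb 13.9 and 15.4.

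Wide zones and tight groups were correspondingly far away. The nearest zone of 10 kb or more lay at a median of 4757 kb from an isolated zone (quartiles 1876 and 11702 kb) and at 382.1 kb from the other zones of the width range (quartiles 62.6 and 3029 kb). The nearest group of 5 or more zones spaced under 10 kb apart lay at a median of 7538 kb from an isolated zone. It lay at 1897 kb from zones of the width range that were neither isolated nor in such a group. The choice of zones enters both contrasts. No zone of any width can lie within 100 kb of an isolated zone, while the others have a neighbour within 100 kb by definition. The same distances over all autosomal zones were not computed.

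Each autosome carried isolated zones. They numbered 0.72 ± 0.13 per Mb (SD, n = 19 autosomes), with the most on chromosome 3 at 0.97 per Mb (151 zones) and the fewest on chromosome 11 at 0.53 per Mb (63 zones). They were 9.06% of the zones of chromosome 3 and 2.37% of those of chromosome 11. The density of isolated zones was lower on autosomes with more zones in all, with Spearman's rho -0.77 over 19 autosomes, and more zones leave less room for isolated ones by construction. The span nearest to an isolated zone was 21.9% ± 4.07 (SD, n = 19). It was smallest on chromosome 11 (13.9%) and largest on chromosome 1 (28.1%). Chromosome 17 had 22.8% with 17.3 zones per Mb, and chromosome 13 had 20.8% with 12.3, so the 2 measures did not move strictly together.

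**Figure D5:**
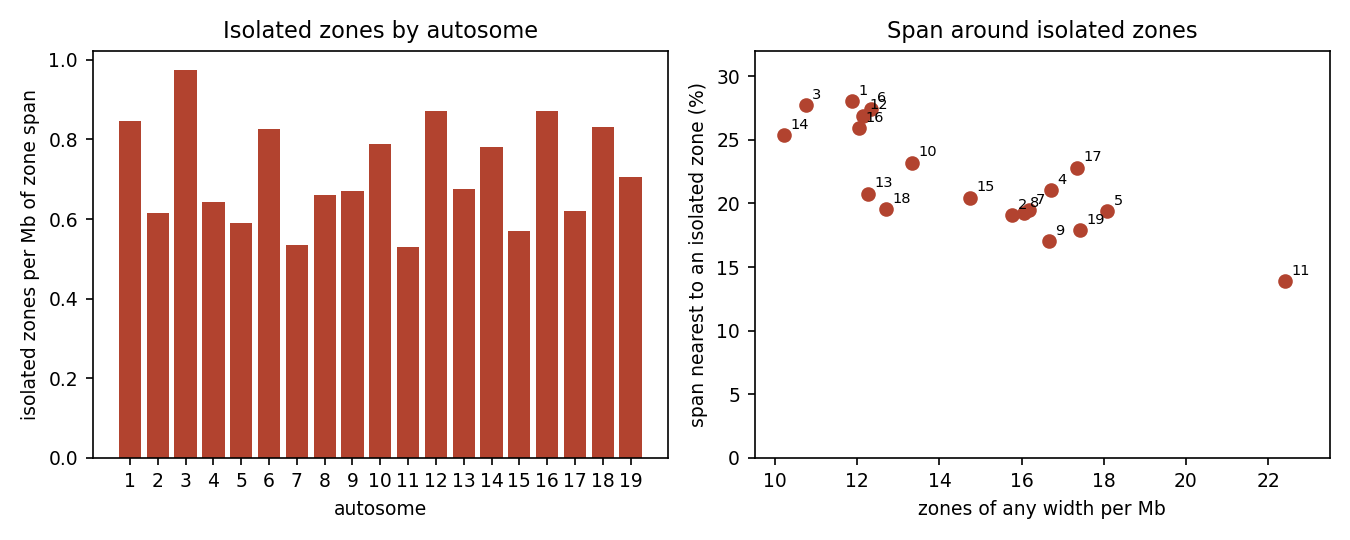
Left, isolated zones per Mb of zone span on each autosome (bars). Right, share of the span nearest to an isolated zone (vertical axis, in percent) against the density of all zones (horizontal axis, zones per Mb), with each autosome as a numbered point. Chromosome 3 has the most isolated zones per Mb at 0.97, and chromosome 11 lies lowest in both panels, at 0.53 per Mb and 13.9% of the span.

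Along the autosomes, isolated zones were fewest near the end of highest coordinates, away from the centromere in the acrocentric mouse chromosomes. In the last 10 Mb of the span there were 0.44 ± 0.28 isolated zones per Mb (SD, n = 19 autosomes), the part between the ends 0.74 ± 0.13, and the first 10 Mb 0.83 ± 0.33. The last 10 Mb had fewer than the first on 15 of 19 autosomes, more on 3 (chromosomes 3, 11 and 19) and as many on chromosome 7. With 200 kb in place of 100 kb as the distance, the mean of last less first was -0.16 per Mb, compared with -0.39 here. That rule kept 522 zones in place of 1729, and a difference in zones per Mb shrinks with the number of zones kept. Chromosome 15 had 0 isolated zones among the 325 zones of its last 10 Mb. As a share of all zones, isolated zones made up 2.06% in the last 10 Mb, 5.14% between the ends and 7.32% in the first 10 Mb. Zones as a whole were more numerous there, with 4073 in the last 10 Mb and 2158 in the first, and their part in the difference was not tested.

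Chromosome X, which the rule left out, gives a comparison at low zone density. Of its 369 zones, 135 (36.6%, interval 31.8% to 41.6%) met the same conditions of width and distance. These had a median width of 1600 bp with quartiles at 1200 and 2400 bp, close to the 1600, 1200 and 2200 bp of the autosomal isolated zones, although their nearer neighbour lay farther off, at a median of 229.6 kb compared with 148.8 kb. Zones of 5 kb or wider were 2 of 135 (1.48%, interval 0.41% to 5.24%), and isolated zones under 1 kb were 21.1% of the isolated zones of any width, compared with 23.4% on the autosomes. The density of such zones on chromosome X, 0.83 per Mb, lay within the range of the autosomes. The contrast in width did not: the other zones of the width range on chromosome X had a median of 2000 bp. Isolated less other was -400 bp there, compared with -600 to -1600 bp on the autosomes.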

How the data were processed

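The authors' deposited list of zones was used, in which the nascent strands of 3 cultures are combined, as the series' design text states. It gives the first and last base of each zone and no signal. CASAVA 1.8, SICER and mm9 are named in the submitters' processing notes; their settings, and the use made of the controls, are not given in the sources used here. Starts and widths lie on a 200 bp grid with no exception, and the shortest distance is 800 bp. A gap in coverage or a higher calling threshold can remove weak zones and so make others isolated or narrower. Positions are printed counting from 1.

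Distances are the bases between zone edges. Zones were assigned to windows and rings by midpoint, and a chromosome's span runs from its first to its last zone. The first and last zone of each autosome (38 in all) were left out of both groups compared. The rule was checked on simulated lists. The members and comparisons were chosen with earlier results of these data known. Zones named are the 5 most isolated, the 5 widest, 3 on each side of the threshold, the longest run, the fullest window and the extreme autosomes; further ones are said to be so or extend these lists. Python 3.11.15, numpy 2.4.6, pandas 2.3.3, scipy 1.17.1 and matplotlib 3.10.9 were used. Alternatives were other distances, midpoints, neighbours of 1 kb or more only, joined zones, other width ranges, other end lengths and each autosome left out.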

Additional observations from a re-analysis of the deposited data

How the results depend on the processing

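Of 60 alternatives, 45 left the value within 1 SD over the autosomes (or, for counts, within 1.5 times, and for the share of zones, inside its 95% interval), 15 moved it further, and 0 reversed a direction. Only the difference in median width and the difference between the ends have a sign that could reverse, since the other values are always positive. The values with 1 autosome left out share most of their zones with the reported ones and could move little. With 50 kb in place of 100 kb the rule gave 4543 zones of median width 1800 bp, 37.4% of the span, 44.2% with a nearest zone of the same set and a median side ratio of 1.75. With 200 kb it gave 522 zones, 1400 bp, 10.7% and 25.3%, and the last 10 Mb less the first came to -0.16 zones per Mb in place of -0.39, which is within 1 SD over the autosomes. With zones under 1 kb not counted as neighbours, 31.8% had a nearest zone of the set. The median width of isolated zones less that of the others, -1000 bp as reported, was -600 bp for zones of 1 kb to under 5 kb and -1600 bp with no limit on width, where isolated zones had a median of 1200 bp. Other zones numbered 2 at the median within 250 kb and 14 within 1 Mb. The numbers of zones, the share of the span and the numbers within a radius move by construction. The difference between the ends is given in zones per Mb, so its size also depends on how many zones the rule keeps. Median widths and their difference under another width range also move by construction, because its limits decide which widths are counted. For the other values the cause was not tested. No paired analysis was possible because all 3 replicates share 1 pooled list, which also kept single replicates from being left out. The planned comparisons of GC content and gene starts were not run, since they need sequence and annotation of mm9. Depth is unknown, so the number of weak zones missed in calling is not known.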
